A study of Rattus norvegicus with 12 samples.

Results

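The genes of antioxidant defence described here are Hmox1, Nqo1, Gclc, Gclm, Txnrd1, Srxn1, Prdx1, Sod1, Sod2 and Cat, chosen by name: all probes annotated with one of these symbols were taken, apart from control spots. The 10 genes were represented by 15 of the 41012 probes of the array, and 8 of the genes, on 12 probes, had a signal well above background that allowed a test. PC12 cells, a line derived from a rat adrenal pheochromocytoma that responds to PACAP with neurite outgrowth, were treated with PACAP38 at 1e-07 M for 5, 10, 15, 30, 60 or 120 min, and each treated group was set against control cells of the same time point. For each group a single RNA pool (n = 6) was made, and treated and control pools shared 2 two-colour Agilent whole rat genome arrays, with the dyes exchanged on the second. Both arrays of a time point thus held the same pools, so a time point was 1 replicate without a test of its own, and the folds of both arrays are given in place of an error. All groups came from this cell line, grown in medium with serum, and the untreated cells were sampled at each of the 6 time points. A fold is PACAP38 over control, from the dye-normalized processed signals. Signal was well above background on 38.4 to 49.6% of the spots per array for the control RNA. The 9 chromaffin cell markers represented on the array (among them Th, Dbh, Chga and Phox2a) were above background on all 12 arrays, while Ptprc and Aif1 of leukocytes, Col3a1 and Lum of fibroblasts, Gfap of astrocytes and Alb and Apoa1 of hepatocytes were above background on none, and Col1a1 and Cd68, of the same lists, were above it on all. In RNA of whole cultures a change in every cell and a change in the share of responding cells cannot be told apart. Fos, an immediate early gene taken as a check of the treatment, was 16.8- to 21.3-fold higher with PACAP38 from 10 min on.

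Cells dispose of reactive oxygen species in steps. Superoxide dismutases turn superoxide into hydrogen peroxide, which catalase and the peroxiredoxins remove, and the glutathione and thioredoxin systems supply the reducing power. Many of the genes concerned are targets of the transcription factor Nrf2 (Nfe2l2), which is held back by Keap1 and binds the antioxidant response element as a dimer with a small Maf protein (Maff, Mafg or Mafk), while Bach1 competes for the same element. In cells under oxidative load, Hmox1, Nqo1, Gclc, Gclm, Txnrd1 and Srxn1 are classical inducible targets, whereas Sod1 and Cat are known as housekeeping enzymes of the same defence.

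The sequences read by the arrays and those upstream of the responding genes are given first. The following 60-base probes carried the values of Hmox1 (10 spots per array), of Gclc, and of the Txnrd1 probe whose position covers 1879 bases, more than its own length, so that it crosses an intron. They are written as the array design gives them, with positions on the rn4 assembly, at chr19:13969336-13969395 on the plus strand, chr8:82761662-82761721 on the plus strand and chr7:23073062-23074940 on the minus strand.
Hmox1: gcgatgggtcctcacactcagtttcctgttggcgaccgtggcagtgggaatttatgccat
Gclc: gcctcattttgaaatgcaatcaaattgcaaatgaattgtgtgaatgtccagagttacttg
Txnrd1: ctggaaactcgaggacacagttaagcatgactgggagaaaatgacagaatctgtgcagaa
The Srxn1 probe with a signal lay at chr3:142460556-142460615 on the plus strand of rn4, and the 3 other Txnrd1 probes lay at chr7:23055529-23055562 and chr7:23056700-23056759 on the minus strand and at chr7:23055604-23055663 on the plus strand. The last of these came from an expressed sequence tag and runs opposite to the other probes of the gene. The probes of Prdx1 (chr5:136983425-136984996) and Cat (chr3:88683063-88685007) also crossed an intron.

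Promoter windows of RefSeq (build GRCr8, from 250 bases before the start of the transcript to 50 after it) were at hand for 9 of the 10 genes, in 10 windows. They were searched on both strands for the core of the antioxidant response element (TGACNNNGC), the AP-1 site (TGANTCA) and the cAMP response element (TGACGTCA). The antioxidant response element core and the AP-1 site can overlap. Of all 33469 windows of this length, 12.1% held the first, 7.33% the second and 1.83% the third. The windows shown are those of Srxn1 (chr3:161064562-161064861, plus strand), of one Txnrd1 start (chr7:22755855-22756154, minus strand) and of Maff (chr7:112792537-112792836, plus strand), as examples of each motif from genes that passed the 2-fold rule on the arrays (2-fold or more with a spot p-value below 0.01 on both arrays of a time point). They were picked after the values were seen, and capitals mark the matches.
Srxn1: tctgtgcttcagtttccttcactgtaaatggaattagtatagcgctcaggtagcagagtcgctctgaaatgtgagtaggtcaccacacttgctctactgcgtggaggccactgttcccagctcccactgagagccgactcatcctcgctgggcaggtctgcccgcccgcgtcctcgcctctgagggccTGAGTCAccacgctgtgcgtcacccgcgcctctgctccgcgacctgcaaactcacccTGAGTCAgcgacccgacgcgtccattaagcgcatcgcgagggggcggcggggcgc
Txnrd1: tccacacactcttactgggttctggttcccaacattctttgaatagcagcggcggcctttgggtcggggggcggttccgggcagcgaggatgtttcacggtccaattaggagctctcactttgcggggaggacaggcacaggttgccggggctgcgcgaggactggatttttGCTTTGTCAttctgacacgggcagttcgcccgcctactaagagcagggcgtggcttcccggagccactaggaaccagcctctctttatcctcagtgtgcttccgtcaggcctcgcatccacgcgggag
Maff: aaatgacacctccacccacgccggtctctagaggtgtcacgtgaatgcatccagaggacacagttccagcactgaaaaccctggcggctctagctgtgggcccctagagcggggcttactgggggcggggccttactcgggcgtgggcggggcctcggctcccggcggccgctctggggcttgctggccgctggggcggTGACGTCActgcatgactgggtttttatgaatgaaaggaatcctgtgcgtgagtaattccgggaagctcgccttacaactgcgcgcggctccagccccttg
Srxn1 held 2 AP-1 matches, which began 62 and 5 bases before the start. With the 2 bases after it, the nearer match read TGAGTCAGC, which differs from the searched core in 1 letter. Variants of the core were not searched. Txnrd1 held 1 antioxidant response element core 78 bases before the start, on the opposite strand. The core was also found in the windows of Gclm (172 bases before the start), Prdx1 (135 bases) and Sod2 (35 bases), so that 4 of the 10 windows held it. The second Txnrd1 window (chr7:22764802-22765101, minus strand) held no match to any of the motifs. In Prdx1 an AP-1 match at 133 bases overlapped the core, and a second AP-1 match lay at 248 bases. The windows of Gclc, Nqo1, Sod1 and Cat held none of these letters. A match is a string of letters and was not tested as a binding site.

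Srxn1 (sulfiredoxin, which repairs overoxidized peroxiredoxins) had the largest fold of the 8 genes with a signal, with a mean of both arrays of 0.972 after 5 min and 8.32 after 120 min. The fold was 1.74 with PACAP38 in Cy5 and 0.542 in Cy3 after 5 min, 1.40 and 0.557 after 10 min, and 1.63 and 0.880 after 15 min. The arrays of these early time points thus pointed in opposite directions, and PACAP38 was above background on only 1 array of each. The fold then was 2.56 and 1.73 after 30 min, 5.2 and 4.44 after 60 min and 10.1 and 6.84 after 120 min, and both arrays showed a higher level with PACAP38 at each of these times. A second Srxn1 probe was above background in neither channel on any array, so these values rest on 1 probe.

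Gclc (the catalytic subunit of glutamate-cysteine ligase, the rate-limiting enzyme of glutathione synthesis) had folds of 1.14 and 0.911 after 5 min, 1.19 and 1.71 after 10 min, 1.28 and 1.29 after 15 min and 1.08 and 0.990 after 30 min. It then reached 1.79 and 1.99 after 60 min and 3.86 and 4.95 after 120 min. The mean of both arrays was 1.02-fold after 5 min, 1.42-fold after 10 min, 1.29-fold after 15 min, 1.03-fold after 30 min, 1.89-fold after 60 min and 4.37-fold after 120 min. Gclm, the modifier subunit of the same enzyme, was not well above background in either channel on any of the 12 arrays, and no fold can be given.

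Txnrd1 (cytosolic thioredoxin reductase, which passes electrons from NADPH to thioredoxin) had 4 probes under its symbol, 3 of them on its strand, all above background on 12 of 12 arrays. On the brightest one the fold was 0.928 and 1.00 after 5 min, 0.960 and 1.04 after 10 min, 1.26 and 1.07 after 15 min, 1.17 and 0.791 after 30 min, 1.24 and 1.12 after 60 min and 2.63 and 2.01 after 120 min. Only the last pair stood apart from 1 on both arrays. The other 3 probes were higher after 120 min as well, with folds of 2.92 and 2.68, 3.40 and 3.24, and 2.29 and 1.75, the last from the probe on the opposite strand. They differed after 5 min, when the probe across the intron had 0.461 and 0.795 while the other 2 had means of 0.862 and 0.970. The 3 probes on the strand of the gene thus had means from 2.30- to 3.32-fold after 120 min. The probe on the opposite strand, whose accession had no symbol, had a mean of 2.0-fold, and it is not counted as a reading of Txnrd1.

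Hmox1 (haem oxygenase 1, which breaks down haem to biliverdin, iron and carbon monoxide) had smaller folds and passed neither the 2-fold nor the 1.5-fold rule. Its folds were 1.04 and 1.02 after 5 min, 0.956 and 0.894 after 10 min, 0.974 and 0.915 after 15 min, 1.1 and 0.883 after 30 min, 1.23 and 1.14 after 60 min and 1.78 and 1.35 after 120 min, with a mean of 1.55 at the last time point. The probe was spotted 10 times per array, so the technical spread within an array can be seen. At 120 min the 9 spots of the Cy5 array that carried no outlier flag lay between 1.72- and 1.81-fold and the 8 of the Cy3 array between 1.30- and 1.38-fold. The spots of each array thus lay close together, the arrays of the same pools did not overlap, and no spot after 60 or 120 min was below 1. At 30 min all 10 spots of the Cy5 array were above 1 and all 7 of the Cy3 array below 1, which shows the size of the difference between dye orientations. Nqo1, a quinone reductase that is often read together with Hmox1, was not well above background in either channel on any array.

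The remaining 4 genes, Prdx1 (a peroxiredoxin of the cytosol), Sod1 (the copper and zinc superoxide dismutase of the cytosol), Sod2 (the manganese enzyme of mitochondria) and Cat (catalase, of peroxisomes), stayed near 1. At 120 min Prdx1 had folds of 0.790 and 1.1, the brighter Sod1 probe 0.967 and 0.995, Sod2 1.34 and 1.18 and Cat 1.19 and 1.22. Over all time points the mean of both arrays lay between 0.931 and 1.11 for Prdx1, between 0.911 and 1.04 for this Sod1 probe (0.941 and 1.03 for the other), between 0.991 and 1.26 for Sod2 and between 0.835 and 1.20 for Cat. None of them reached 1.5-fold on both arrays at any time point.

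**Figure D1:**
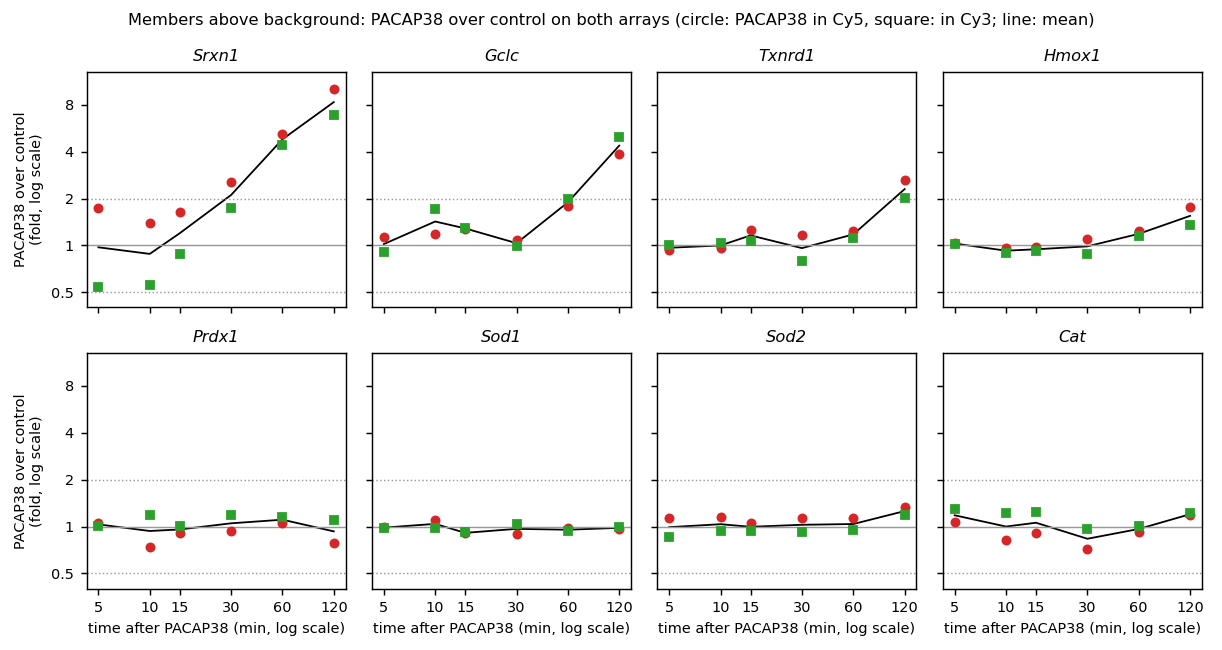
PACAP38 over control (fold, log scale) against time after PACAP38 (min, log scale) for the brightest probe of the 8 genes with a signal above background. Circles are the array with PACAP38 in Cy5, squares the array with PACAP38 in Cy3, the line is their mean, and the dotted lines are 2-fold changes. Srxn1, Gclc and Txnrd1 lie at or above 2 on both arrays at 120 min, while Prdx1, Sod1, Sod2 and Cat stay near 1.

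Counted by the 2-fold rule, none of the 8 genes was higher at 5, 10, 15 or 30 min. The shares of all tested genes that were higher at these times were 0, 0.158, 0.214 and 0.561%, in that order. At 60 min 1 of the 8 genes passed, Srxn1, against 1.75% of all tested genes. At 120 min 3 of the 8 passed, Srxn1, Gclc and Txnrd1, against 3.78%. No gene was lower by this rule at any time point, and the share of all tested genes that were lower was 0, 0, 0.063, 0.252, 0.888 and 3.51% from 5 to 120 min. With 1.5-fold on both arrays and no p-value, Srxn1 was higher at 30 min (1.08% of all genes), Srxn1 and Gclc at 60 min (3.26%), and the same 3 genes as above at 120 min (6.65%). The median log2 fold of the 8 genes at 120 min was 0.48, and that of all tested genes -0.05. The sizes for Srxn1 and Gclc were smaller under another processing of the signals. With normexp correction, which adds 50 to the signals, and loess normalization, the fold at 120 min was 3.11 for Srxn1 and 1.83 for Gclc. That of Txnrd1 was 2.08, close to its 2.30 without this correction, so its lost call there came with little change in the mean fold. The 2-fold rule held for no gene at 60 min and for Srxn1 alone at 120 min.

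Whether a ratio changed with time was tested across all probes with limma, as a slope on log2 time over the 6 time points, and 0.523% of the 20264 probes had a rising slope at an adjusted p below 0.05. Srxn1 was the 1 member among them, with a slope of 0.75 (SE 0.091, 95% interval 0.53 to 0.97, n = 6 time points) in log2 fold per doubling of time and an adjusted p of 0.0437. The slopes of Gclc (0.37, interval 0.09 to 0.65, adjusted p 0.111), the brightest Txnrd1 probe (0.22, interval 0.03 to 0.41, adjusted p 0.140) and Hmox1 (0.13, interval 0.02 to 0.25, adjusted p 0.133) did not pass. The other Txnrd1 probes had slopes of 0.41, 0.33 and 0.20 with adjusted p of 0.0636, 0.101 and 0.116, the last from the probe on the opposite strand. The call of Srxn1 was lost under normexp with loess (slope 0.37, adjusted p 0.0663) or with median centring (0.34, adjusted p 0.0880), and without a filter on dim probes (adjusted p 0.0898). It was also lost when the time point at 10, 15, 30, 60 or 120 min was left out (adjusted p 0.138, 0.0991, 0.0616, 0.128 and 0.190), with slopes between 0.68 and 0.76, and with the slide as a block (slope 0.49, adjusted p 0.895). Each slide held 2 neighbouring time points, so slide and time are partly confounded. With time in minutes in place of log2 time, Srxn1, Gclc, Txnrd1 and Hmox1 all passed (adjusted p 0.00511, 0.00846, 0.0126 and 0.00984), and so did 5343 of all probes. Without the time point of 120 min the slopes on log2 time were 0.16 for Gclc, 0.06 for Txnrd1 and 0.06 for Hmox1 (adjusted p 0.541, 0.673 and 0.636), so their size rested on that time point. Under normexp the slope of Gclc was 0.17 with loess and 0.15 with median centring, and with median centring that of Txnrd1 was 0.13 and that of Hmox1 0.06.

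For Prdx1, Sod1, Sod2 and Cat the slopes were 0.00 (interval -0.08 to 0.08), -0.01 (-0.07 to 0.06), 0.06 (-0.01 to 0.13) and -0.01 (-0.14 to 0.12) in log2 fold per doubling of time. Their average log2 fold over the 6 time points was 0.00 (interval -0.12 to 0.12) for Prdx1, -0.04 (-0.14 to 0.06) for Sod1, 0.08 (-0.06 to 0.21) for Sod2 and 0.05 (-0.14 to 0.23) for Cat. By this average, which sets all time points together, no probe of the whole array passed in limma (0%), although 1850 (9.13%) had an unadjusted p below 0.05. Srxn1 averaged 1.07 (interval -0.03 to 2.17, adjusted p 0.531) and Gclc 0.67 (interval 0.01 to 1.32, adjusted p 0.531). These averages were 0.68 and 0.37 without the time point of 120 min, 0.46 and 0.23 under normexp with loess, and 0.43 and 0.22 with median centring.

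**Figure D2:**
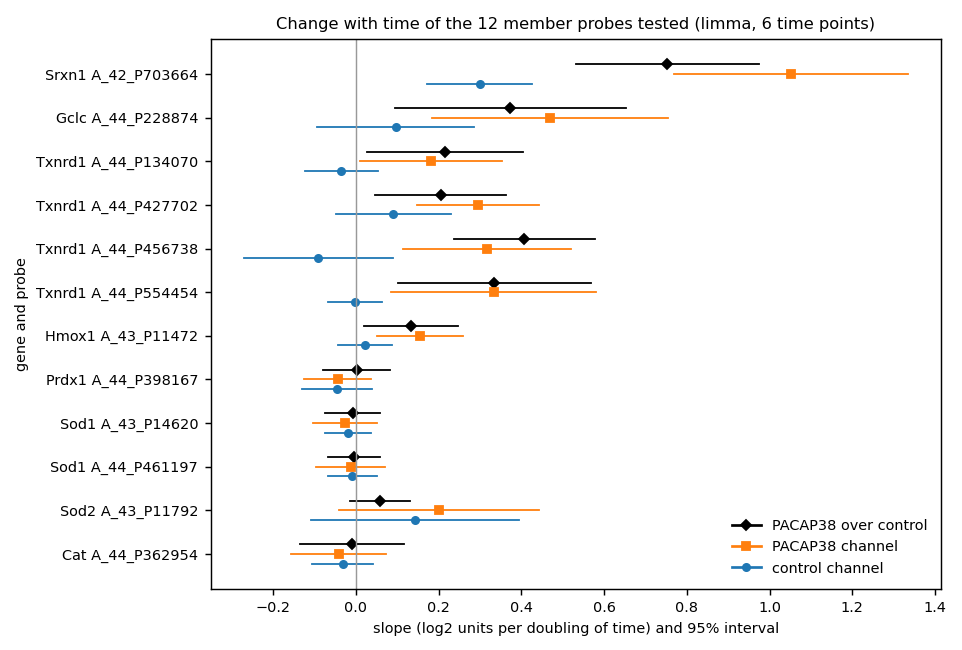
Slopes in log2 units per doubling of time, with 95% intervals from limma over 6 time points, for the 12 probes of these genes that were tested, with gene and probe on the vertical axis. Black diamonds are PACAP38 over control, orange squares the PACAP38 channel and blue circles the control channel. The Srxn1 interval of the ratio (0.53 to 0.97) lies furthest from 0, and those of Prdx1, Sod1, Sod2 and Cat include 0.

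The levels in each RNA show which channel moved. They are log2 signals after scaling between arrays, averaged over both arrays, and since different probes hybridize differently they are compared only within a probe. In the PACAP38 pools Srxn1 was at 5.42, 5.61, 5.88, 7.04, 8.48 and 10.05 from 5 to 120 min. In the control pools it was at 5.46, 5.79, 5.62, 5.96, 6.22 and 6.99. The PACAP38 pools were higher on both arrays from 30 min on, and the control pool of 120 min was also the highest of its 6. The slope of the PACAP38 channel was 1.05 (interval 0.77 to 1.33, adjusted p 0.0432), and 2.39% of all probes had a rising slope there. That of the control channel was 0.30 (interval 0.17 to 0.43, unadjusted p 0.00101, adjusted p 0.168). No probe passed in the control channel (0%), where 3428 (16.9%) had an unadjusted p below 0.05 in limma. The call in the PACAP38 channel was lost without the time point of 10, 15, 60 or 120 min (adjusted p 0.121, 0.0832, 0.0980 and 0.145).

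Gclc in the PACAP38 pools was at 6.15, 5.87, 6.05, 6.03, 7.33 and 8.18 on the same scale, and in the control pools at 6.12, 5.36, 5.68, 5.98, 6.41 and 6.05. Only the PACAP38 pools of 60 and 120 min lay above all control pools. For Txnrd1 the control pools lay between 10.72 and 11.08, with an SD of 0.14 over the 6 pools, and the PACAP38 pools were between 10.94 and 11.15 through 60 min and at 12.01 at 120 min. For Hmox1 the control pools lay between 12.87 and 13.06, with an SD of 0.07, and the PACAP38 pools at 12.91, 12.94, 12.88, 13.04, 13.23 and 13.66. The last of these stood 0.63 above its control, several times the spread of the control pools, and the one of 60 min lay above all control pools too. The PACAP38-channel slopes of Gclc (0.47, adjusted p 0.0625) and Hmox1 (0.16, adjusted p 0.0718) did not pass.

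**Figure D3:**
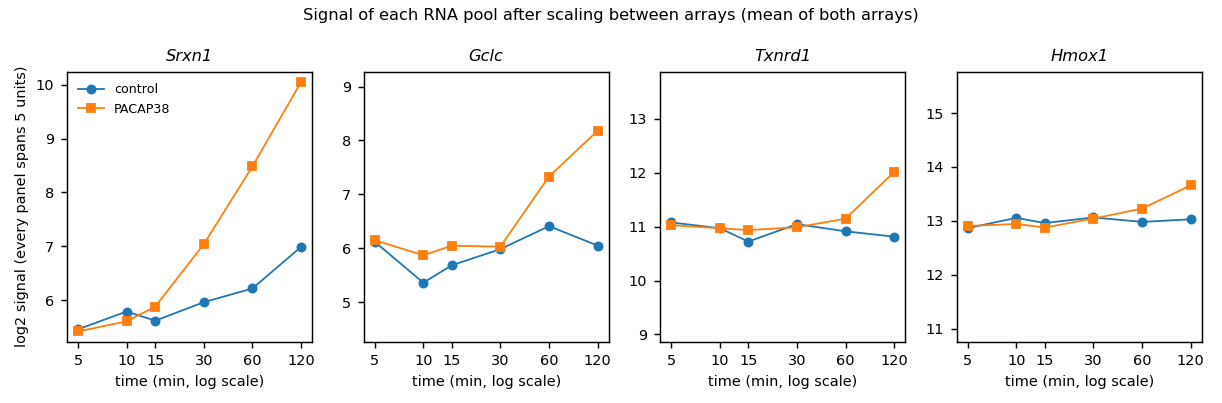
Log2 signal after scaling between arrays, mean of both arrays, against time (min, log scale) for the control pools (blue circles) and the PACAP38 pools (orange squares), with the same span on each vertical axis. Srxn1 reaches 10.05 with PACAP38 and 6.99 in the control at 120 min, and Hmox1 13.66 and 13.03.

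Among the genes whose ratio stayed near 1, the control levels were steady for Sod1 (16.06 to 16.16, SD 0.04), Cat (6.79 to 7.06, SD 0.10) and Prdx1 (14.16 to 14.51, SD 0.14). Sod2 ranged more widely (8.30 to 9.77, SD 0.50), and its lowest control pool, at 10 min, came with the lowest PACAP38 pool (8.35). The processed control signal of Sod2 was 124 on the 10 min array with PACAP38 in Cy5 and 608 on the other array of the same pools, and the PACAP38 signal was 143 and 567. Both channels were thus low on 1 array, and the Sod2 fold at 10 min was 1.15 and 0.934.

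The pathway around these genes was read from 87 further genes in 5 lists, of which 86 were on the array and 71 were tested. By the 2-fold rule 1 was higher at 30 min, 2 were higher and 1 lower at 60 min, and 4 of the 71 were higher and 2 lower at 120 min. Of all tested genes 0.561% were higher at 30 min, 1.75% were higher and 0.888% lower at 60 min, and 3.78% were higher and 3.51% lower at 120 min. Of the 4 list genes higher at 120 min, 2 (Maff and Bach1) could not have been tested on their control RNA alone. Nothing about the lists is read from these counts. No list gene passed at 5, 10 or 15 min.

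Of the 12 regulators of Nrf2 target genes, 10 were tested, and Maff, Mafk and Bach1 passed. The control RNA of Maff and Bach1 was above background on both arrays at no time point. Their test thus needed the PACAP38 RNA, and their passing gives no support to a count over the list. Maff was at least 2.23-fold higher after 30 min, when the control was above background on neither array, and 10.7-fold (16.3 and 7.02) after 60 min and 13.5-fold (19.9 and 9.13) after 120 min, with the control above background on 1 of 2 arrays. Mafk was 2.77-fold higher (2.85 and 2.68) after 60 min and 4.31-fold (4.27 and 4.34) after 120 min, and both arrays gave nearly the same values. Bach1 was 3.26-fold higher (3.66 and 2.90) after 120 min, with the control above background on 1 of 2 arrays, and a second Bach1 probe had no signal. Mafg was 1.40-fold (1.63 and 1.20) after 120 min and passed neither rule. Nfe2l2 itself was 0.502-fold (0.353 and 0.714) after 120 min, with PACAP38 above background on 1 of 2 arrays, and Keap1 was 0.636-fold (0.692 and 0.584), and neither passed. The Nfe2l2 arrays differed widely after 30 min, with 0.534 and 3.07, and the fold was higher with PACAP38 in Cy3 at every time point. The processed control signal of Nfe2l2 was 517 and 42.7 on the arrays of 5 min and 1031 and 101 on those of 15 min. This probe thus reproduced poorly between arrays of the same pools. In the slope across time Maff (1.01, adjusted p 0.0515) and Mafk (0.50, adjusted p 0.0721) did not pass.
The RefSeq window of Maff held a cAMP response element 51 bases before the start, as shown above, and that of Mafk an antioxidant response element core 41 bases before it. In Bach1 an AP-1 site lay 30 bases after the start, and in Nfe2l2 an antioxidant response element core 39 bases after it.

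**Figure D4:**
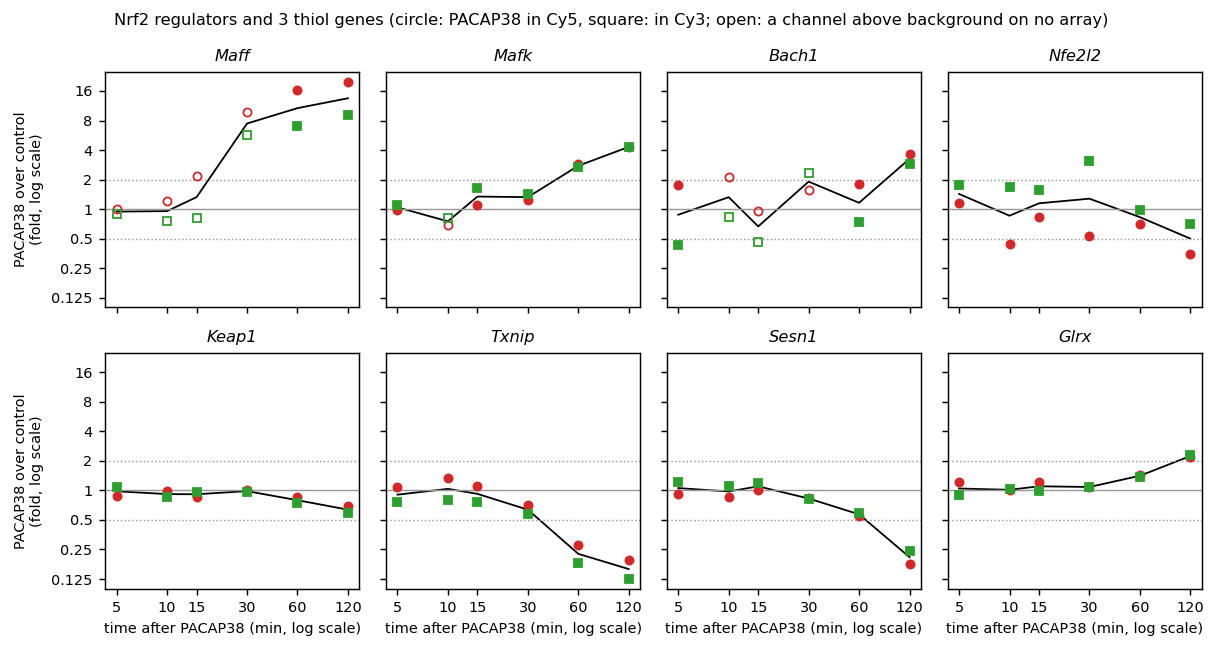
PACAP38 over control (fold, log scale) against time (min, log scale) for 5 regulators of Nrf2 target genes and for Txnip, Sesn1 and Glrx, by brightest probe. Circles are the array with PACAP38 in Cy5, squares that with PACAP38 in Cy3, the line is their mean, and open symbols mark time points where one or both RNAs were above background on neither array. Maff and Mafk lie above 2 on both arrays at 60 and 120 min, and Txnip (0.158) and Sesn1 (0.209) are the lowest at 120 min.

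In the list of thioredoxins, peroxiredoxins and repair enzymes 14 of 16 genes were tested, and 2 passed, both lower. Txnip, which binds and inhibits thioredoxin, was 0.226-fold (0.278 and 0.183) after 60 min and 0.158-fold (0.197 and 0.126) after 120 min. Its control channel had a slope of 0.37 (interval 0.06 to 0.67, unadjusted p 0.0248, adjusted p 0.249) and its PACAP38 channel a slope of -0.26 (interval -0.72 to 0.19, adjusted p 0.363), neither of which passed. Sesn1 (sestrin 1, a stress-inducible protein linked to peroxiredoxin repair and to growth control) was 0.570-fold (0.546 and 0.594) after 60 min and 0.209-fold (0.179 and 0.244) after 120 min. These 2 genes were the only ones of the list outside 0.94- to 1.35-fold after 120 min, where the median log2 fold of the list was 0.08. The slopes of Txnip (-0.63, adjusted p 0.0659) and Sesn1 (-0.47, adjusted p 0.0829) did not pass in limma.

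Of the 30 genes of glutathione synthesis and use 22 were tested, and Glrx (glutaredoxin 1, which reduces glutathionylated proteins) passed at 120 min, 2.24-fold higher (2.18 and 2.30). The others lay between 0.68- and 1.42-fold at that time, and the list's median log2 fold was 0.15. Slc7a11, the cystine carrier that feeds glutathione synthesis, was not above background in either channel on any array, while its partner Slc3a2 was measured at 1.35-fold. None of the 9 genes of NADPH supply passed, with folds between 0.83 and 1.18 at 120 min and a median log2 fold of -0.05. Of the 16 tested genes of haem, iron, quinone and other enzymes none passed the 2-fold rule. By 1.5-fold on both arrays Alas1 (the first enzyme of haem synthesis) was lower, 0.593-fold (0.582 and 0.603), and Slc40a1 (ferroportin, the iron exporter) was higher, 1.67-fold (1.84 and 1.52), at 120 min, against 10.4 and 6.65% of all genes that were lower and higher by that rule. Slc40a1 had its control above background on 1 of 2 arrays there, and its second probe had no signal at that time. Its control RNA too was above background on both arrays at no time point.

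**Figure D5:**
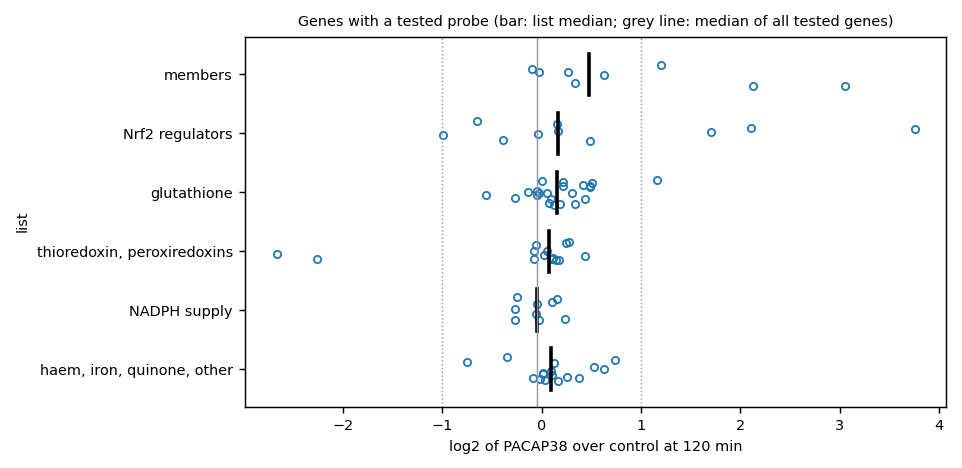
Log2 of PACAP38 over control at 120 min for each gene with a tested probe, by list. Circles are genes, black bars the list medians (0.48 for the 8 genes of the first row), the grey line the median of all tested genes (-0.05), and the dotted lines 2-fold changes. Most genes lie between the dotted lines, with Maff, Srxn1, Gclc and Mafk furthest right and Txnip and Sesn1 furthest left.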

How the data were processed

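The authors scanned the 12 arrays and made their values with Agilent Feature Extraction (version 11.0.1.1 per the labels, 12.0.3.1 per the file headers): the intensities of both dyes, as deposited, had background subtracted and a LOWESS dye normalization applied. The deposited value table holds the log10 of Cy5 over Cy3 and matched the ratio of the processed intensities. Each spot also has a deposited p-value from that software. None of these was turned for the dye exchange.

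From the processed intensities a log2 ratio, PACAP38 over control, was formed per array from its dye assignment, without control spots and outlier flags (197 to 267 spots per array), and spots of 1 probe were averaged. No spot was saturated. The brightest probe stood for a gene. Positions are those of the files, and all 15 probes were matched by the files' gene names. Probes entered the tests if, at 1 or more time points, each of both arrays had at least 1 RNA well above background. This need not be the same RNA on both arrays, so dim probes with a dye bias can enter. A fold with 1 RNA above background on neither array is a bound, taken against the lowest signal well above background after loess and Aquantile scaling, and open to dye bias. Slopes and averages were fitted in limma 3.58.1 (R 4.3.3) with Benjamini-Hochberg adjustment over all probes tested. P-values measure the spread between 6 time points with 1 pool each. Channel levels were scaled by Aquantile. Simulated data held independent noise, with slopes of 0.5 or 1 in either direction in 200 of 20203 probes. The slope test recovered 92.5% of these, and 6.57% of its calls were false. The slopes of Gclc, Txnrd1 and Hmox1 were smaller than 0.5, so this share does not cover them. Python 3.11.15, pandas 2.3.3, numpy 2.4.6 and matplotlib 3.10.9 were used for the rest.

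The genes, the 5 pathway lists and the markers were chosen with earlier results of these data known. List genes are named where they passed the 2-fold rule, or 1.5-fold on both arrays at 60 or 120 min with both channels above background, at most 20, besides Nfe2l2, Keap1, Bach1, Maff, Mafg, Mafk, Slc7a11 and Fos. Ranges of other list genes were read after their values were seen, and Slc3a2 was named then. Alternatives were other fold rules, 1 array alone, normexp (offset 50) with loess or median centring, the deposited table, filters on dim probes, other probes, other scalings, minutes as the time scale, a block for the slide, and the removal of each time point in turn. Promoter sequences came from RefSeq windows on GRCr8, which were not mixed with rn4.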

Additional observations from a re-analysis of the deposited data

Results flagged for a closer look

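The control level of Sod2 at 10 min stood apart from the other 5 control pools: its gap to the nearest pool was 0.684 of the whole range, above the 95% critical value of 0.625 for 6 samples. Of the 8 genes examined in this way it was the 1 that stood apart, and chance alone marks about 1 in 20. Srxn1 differed between time points in PACAP38 over control, by a slope of 0.752 in log2 fold per doubling of time (adjusted p 0.0437 in limma, mean fold at or above 1 at 4 of 6 time points).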

How the results depend on the processing

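The 14 counts of genes or probes were recomputed under each alternative, and 79 of 124 values stayed within 1.5 times the original count. The deposited table held the same ratios as the main setting, so its values could not move. Many of the other values that stayed were 0 against 0, so this tally does not measure robustness. At 30 min 1 gene was higher, in place of 0, by 1.5-fold on both arrays, by 2-fold of the averaged ratio or on the array with PACAP38 in Cy5 alone. At 60 min 2 were higher by 1.5-fold on both arrays and 0 under normexp with loess or with median centring, which left 1 at 120 min under either. The slope of the ratio was called in 0 genes under normexp with loess, normexp with median centring, no filter on dim probes, both channels above background on all arrays (where Srxn1 was not tested) and the slide block, in 4 with time in minutes, and in 0 to 1 without 1 time point. Over all probes 147 slopes were called, against 27 under normexp with loess, 1 with median centring, 0 without a filter, 976 with both channels above background, 5343 with time in minutes, 0 with the slide block, and 0 to 153 without 1 time point. The average over time points was called in 0 to 15 probes without 1 time point. The slope of the PACAP38 channel was called in 3 genes under normexp with loess and in 0 to 2 without 1 time point, and in 899 of all probes, against 1477 by 75th percentile scaling, 2384 under normexp with loess and 0 to 1696 without 1 time point. No direction of a called value reversed. For these shifts the cause was not tested. Each time point had 1 pool, and the number of arrays and the signal over background limit the precision: Srxn1 was dim before 30 min, and Nqo1 and Gclm could not be measured. Every fold pairs PACAP38 with the control of its time point, and the labels give no replicate numbers for a further block.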
